A study of Mus musculus with 2 samples.

Results

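The kinesin and dynein motor genes are the protein-coding genes whose symbol begins with Kif or Klc and a digit, or with Dync, Dynl or Dctn. The rule took 65 of the 55536 annotated genes, of which 22028 are protein-coding. By name they fall into 43 kinesin genes (motor heavy chains, the light chains Klc1 to Klc4, and Kif1bp, a kinesin-binding protein that is no motor), 16 cytoplasmic dynein genes and 6 dynactin genes. The rule used names only and no measured value.

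Kinesins and cytoplasmic dynein are ATP-driven proteins that walk along microtubules, most kinesins towards the plus end and dynein towards the minus end. In neurons, kinesins of the kinesin-1 and kinesin-3 families carry vesicles, mitochondria and RNA away from the cell body into axons and dendrites. Dynein, together with its activating complex dynactin, carries signals, endosomes and organelles back to the cell body. Several other kinesins are known for work in the dividing spindle or the cilium.

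Hippocampus was taken from female B6CASTF1/J mice, a first-generation hybrid of a laboratory strain and a wild-derived one, aged 14 days, with no treatment named and no second genotype, so that there was 1 group only. RNA of 3 animals was pooled for each of the 2 libraries, 2 µg of it was used with ERCC and SIRV spike-ins added, and full-length cDNA was read with long reads, so that 1 read stood for 1 cDNA. The tissue label speaks of a layer of the hippocampus and names none, and the animals are numbered differently for both pools in one label and alike in another. Because there was 1 group, the comparison the design allowed was between replicate 1 and replicate 2, and its tests treat reads as the unit: they compare these libraries and not conditions.

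Replicate 1 held 1168366 reads and replicate 2 held 888704, so that 1 read was worth 0.856 and 1.13 CPM (counts per 1e6 reads). A gene with no read could have been present at up to 2.57 and 3.38 CPM, the level of 3 reads, which covers counting error only. Summed markers of neurons (4029 and 4702 CPM), hippocampal neurons (1926 and 2259 CPM), astrocytes (2390 and 3866 CPM) and oligodendrocytes (4529 and 6137 CPM) were high in both libraries. All 3 neuron, 3 astrocyte and 3 oligodendrocyte markers were higher in replicate 2 (adjusted p at most 0.05, exact binomial test), though with TMM-scaled totals Snap25 and Syp did not pass. Among the 6 hippocampal neuron markers 4 were higher in replicate 2, of which Prox1 (8 and 34 reads) alone passed with TMM-scaled totals, and Pcp4 (369 and 202 reads) was higher in replicate 1. The 5 choroid plexus markers summed to 4638 CPM in replicate 1 and 5.63 CPM in replicate 2, where 4 of the 5 had no read. The 5 markers of ciliated ependyma summed to 47.9 and 16.9 CPM, and the 7 markers of proliferating cells to 74.5 and 78.8 CPM. Rsph1 (42 and 7 reads) led the first list and Pcna (52 and 54 reads) the second. Each other marker of these lists had at most 13 reads in a library, so the sums say little of them. Fewer cells of a type and less RNA per cell cannot be told apart in such bulk samples.

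Sequences are shown first for the exons that the splicing results turn on. They are taken from the GENCODE M21 transcripts, in mm10 coordinates, 5′ to 3′ on the strand of the gene. Klc1 encodes the kinesin light chain that links kinesin-1 to cargo, and its alternative exon at chr12:111789325-111789486, on the plus strand, could be read with or without its first 24 and last 27 bases, which are in capitals. The Klc1 cassette that followed, at chr12:111793649-111793699, has 51 bases, of which the annotated transcript translates 30 and then stops. Only the part up to the stop codon, in capitals, is given.
Klc1 alternative exon: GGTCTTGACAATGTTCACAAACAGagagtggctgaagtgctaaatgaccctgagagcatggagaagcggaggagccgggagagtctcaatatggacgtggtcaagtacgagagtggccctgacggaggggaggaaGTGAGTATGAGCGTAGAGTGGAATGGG
Klc1 cassette to its stop: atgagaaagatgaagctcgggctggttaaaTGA

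The 2 genes of the dynein intermediate chain, which ties the dynein motor to dynactin, each have a coding cassette exon of 60 bases. The Dync1i1 exon lies at chr6:5784439-5784498 and the Dync1i2 exon at chr2:71233649-71233708, both on the plus strand. They are equal at 46 of 60 positions (76.7%), and capitals mark the 14 positions that differ.
Dync1i1 cassette: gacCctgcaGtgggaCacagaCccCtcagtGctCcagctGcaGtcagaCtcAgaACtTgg
Dync1i2 cassette: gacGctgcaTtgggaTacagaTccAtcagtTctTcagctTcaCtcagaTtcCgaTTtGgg

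Dync1li2, a light intermediate chain that binds cargo adaptors, has a coding cassette of 42 bases at chr8:104423586-104423627 on the minus strand. Kif5c, a neuronal kinesin-1 heavy chain, has an annotated coding cassette of 27 bases at chr2:49728542-49728568 on the plus strand. Both are shown in capitals between 12 bases of each flanking exon.
Dync1li2 cassette: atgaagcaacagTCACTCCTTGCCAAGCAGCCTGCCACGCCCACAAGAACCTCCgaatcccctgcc
Kif5c cassette: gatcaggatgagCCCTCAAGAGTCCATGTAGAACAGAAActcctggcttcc

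Dctn2 encodes dynamitin, the subunit that joins the shoulder of dynactin to its filament. The end of its second exon and the start of the intron, at chr10:127267463-127267502 on the plus strand, are shown because most reads left the exon at a site 10 bases past the annotated one. The 10 bases between both sites are in capitals, and each site is followed by gt.
Dctn2 exon end: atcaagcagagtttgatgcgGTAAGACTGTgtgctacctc

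Of the 65 genes, 54 were read in both libraries, 58 in replicate 1 and 56 in replicate 2. The motor genes held 0.508% of the reads of replicate 1 (5931) and 0.543% of those of replicate 2 (4825). The 5 genes read most held 43.0% of the motor CPM. No read was found for Kif12, Kif14, Kif15, Kif28 and Kif2b, among which Kif14 and Kif15 are known for cell division. Another 16 genes had 1 to 9 reads over both libraries and were not tested: Klc3, Kif9, Kif16b, Kif23, Kif11, Kif6, Kif18b, Dynlrb2, Kif27, Kif2c, Kif26a, Kif20a, Kif4, Kif13b, Kif24 and Kif20b. Of the 65 genes, 4 were read in replicate 1 only and 2 in replicate 2 only. The other 44 genes (23 kinesin, 15 dynein, 6 dynactin) had at least 10 reads in all.

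As 1 read is 1 cDNA of any length, CPM counts cDNA molecules read and is not scaled by length. Levels of genes of different length are set side by side with limits. The difference between the libraries ran with transcript length, as given further on, and long transcripts were often read in part. What lay behind the relation with length was not tested. Kinesin genes summed to 2660 ± 482 CPM (SD, n = 2), dynein genes to 1515 ± 157 CPM and dynactin genes to 1077 ± 75.4 CPM. Kinesin was higher in replicate 2 (2319 and 3001 CPM), and dynein (1626 and 1404 CPM) and dynactin (1131 and 1024 CPM) were higher in replicate 1.

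Within the kinesins, the light chains summed to 998 ± 118 CPM and the kinesin-1 heavy chains to 783 ± 219 CPM. Kinesin-2, the heterotrimeric and homodimeric motors of cilia and dendrites, summed to 233 ± 24.1 CPM. Kinesin-3, which moves synaptic vesicle precursors, summed to 186 ± 28.8 CPM. Kinesin-1 and its light chains were thus the most read kinesin proteins in each library. Kinesin-4 summed to 50.7 ± 11.1 CPM and kinesin-13, which takes microtubules apart, to 27.1 ± 9.34 CPM. Each of the families kinesin-5, -6, -8, -9, -10 and -11 had a mean of at most 13.3 CPM, and the 2 kinesin-12 genes had no read.

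Klc1 was the most read motor gene, at 813 CPM in replicate 1 and 952 CPM in replicate 2 (mean 883 ± 98.2). Klc2, the other widely expressed light chain, had 79.6 and 104 CPM. Klc4 had 18.8 and 20.3 CPM, and the testis light chain Klc3 was under the test's minimum. The light chain reads were therefore mostly of Klc1 in both libraries (950 of 1069 in replicate 1 and 846 of 961 in replicate 2).

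Among the heavy chains, Kif5c had 330 and 511 CPM, Kif5a 191 and 291 CPM, and the ubiquitous Kif5b 107 and 135 CPM. All 3 kinesin-1 heavy chains had more CPM in replicate 2, and their order was the same in each library. Kif5b did not pass the test between the libraries (adjusted p 0.314, exact binomial). Kif1bp, which holds kinesins off microtubules, was the third most read gene of the set, at 279 and 394 CPM. Of kinesin-2, Kif3c had 109 and 145 CPM, Kif3a 53.1 and 52.9 CPM and Kif3b 35.9 and 30.4 CPM. Kif3a, the shared partner of the other two, thus stood between them. The kinesin-3 motors Kif1a and Kif1b had 83.0 and 105 CPM, and 63.3 and 83.3 CPM. Both had more CPM in replicate 2, but neither passed the test between the libraries (adjusted p 0.420 and 0.389, exact binomial). Counting all reads, Kif1a was above Kif1b in each library. Counting spliced reads only, the order was the reverse, with 18 and 30 reads for Kif1a and 46 and 33 for Kif1b.

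Of cytoplasmic dynein, the intermediate chain Dync1i1 had 188 and 240 CPM and Dync1i2 91.6 and 141 CPM. The light intermediate chains Dync1li2 (76.2 and 110.3 CPM) and Dync1li1 (65.0 and 93.4 CPM) had overlapping ranges over the libraries. The heavy chain Dync1h1, the motor itself, had 61.6 and 63.0 CPM. Each of the 2 intermediate chain genes had more reads than the heavy chain in each library. The light chains, small proteins of which several also serve outside dynein, were led by Dynll1 (271 and 156 CPM), Dynlrb1 (244 and 132 CPM), Dynlt3 (140 and 160 CPM) and Dynlt1c (166 and 110.3 CPM). Dynll2 had 114 and 73.1 CPM. Together the 9 light chain genes had 1084 CPM in replicate 1 and 713 CPM in replicate 2, and of this group Dynlt3 alone among the 8 tested had a ratio above 0. The dynein of cilia was little read, with 40.2 and 24.8 CPM for Dync2li1 and 18.8 and 19.1 CPM for its heavy chain Dync2h1.

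Of dynactin, Dctn2 had 326 and 318 CPM and Dctn1, the p150 subunit that holds microtubules and dynein, 285 and 307 CPM. The pointed-end subunit genes Dctn5 and Dctn6 had 136 and 110.3 CPM, and 100.1 and 81.0 CPM. Dctn3, the small shoulder subunit, had 233 and 161 CPM, and Dctn4 had 50.5 and 46.1 CPM. Dctn1 and Dctn2 differed from each other by less than 50 CPM in each library, and were read far more than Dctn4.

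**Figure D1:**
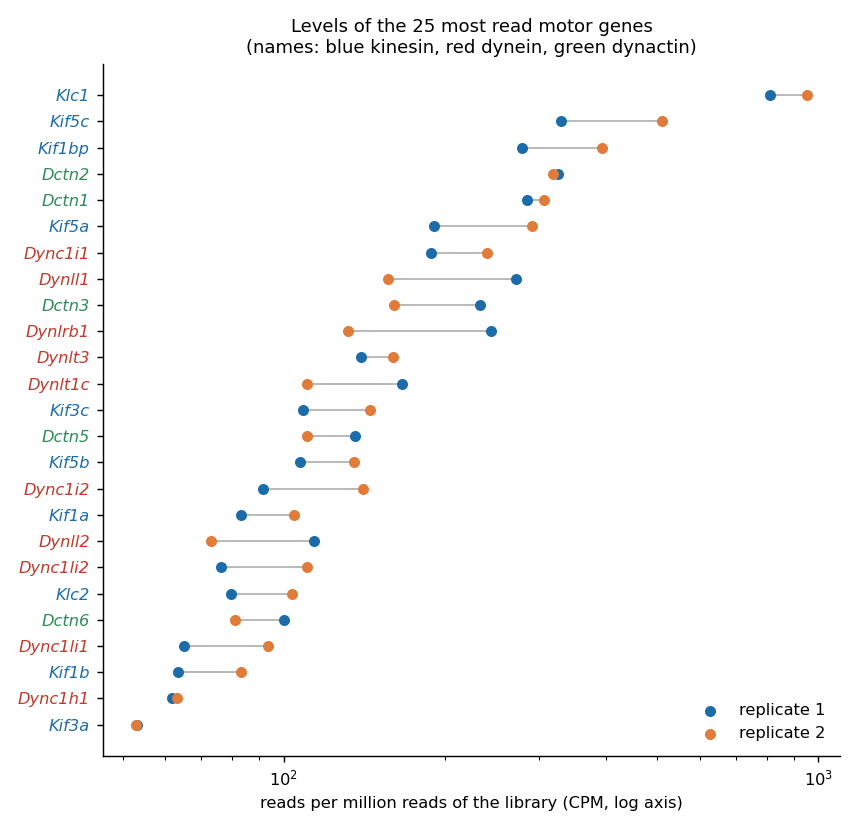
CPM of the 25 most read motor genes (log axis), with 1 point for each library and a line joining both. Klc1 leads at 813 and 952 CPM, kinesin genes lie mostly to the right in replicate 2, and Dynll1, Dynlrb1 and Dctn3 lie to the left there.

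Between the libraries, 11 of 44 tested motor genes differed at an adjusted p of at most 0.05 in the exact binomial test of the read split, with Benjamini-Hochberg adjustment over 11681 genes. The share over all genes tested was 10.8% (5.03% higher in replicate 1 and 5.81% higher in replicate 2). Higher in replicate 1 were 6 motor genes, of which 5 were dynein light chains and 1 was Dctn3, and no kinesin was among them. Higher in replicate 2 were 5, of which 4 were kinesin genes and 1 was Dync1i2. The median log2 ratio (replicate 2 over replicate 1, with 1 CPM added) was 0.07 over the 44 tested motor genes and 0.11 over all genes. It was 0.33 over the 23 kinesin genes, -0.42 over the 15 dynein genes, -0.21 over the 6 dynactin genes and -0.71 over the 8 tested dynein light chains.

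Kif5c had 386 reads in replicate 1 and 454 in replicate 2, although replicate 1 had more reads in all (log2 ratio 0.63, exact binomial adjusted p 3.04e-08). Kif5a had 223 and 259 reads (0.61, adjusted p 0.000149, exact). Kif1bp had 326 and 350 reads (0.50, adjusted p 0.000275, exact). All 3 were higher in replicate 2, by log2 ratios of 0.50 to 0.63. Klc1, with 950 and 846 reads, had a smaller log2 ratio of 0.23 (adjusted p 0.0130, exact), and Dync1i2, with 107 and 125 reads, one of 0.61 (adjusted p 0.0175, exact). With totals scaled by TMM, which shifts the median of all genes by -0.13, the adjusted p became 0.486 for Klc1 and 0.0942 for Dync1i2. With annotated transcripts only it was 0.434 and 0.0518 (exact binomial test throughout).

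On the other side, Dynlrb1, the roadblock light chain, had 285 and 117 reads (log2 ratio -0.88, adjusted p 5.12e-07, exact). Dynll1, the LC8 hub protein, had 317 and 139 (-0.79, adjusted p 1.86e-06, exact). Dctn3 had 272 and 143 reads (-0.53, adjusted p 0.00568, exact). All 3 were higher in replicate 1, and their leading transcripts have 684, 2030 and 973 nt. Dynlt1c had 194 and 98 reads (-0.59, adjusted p 0.0131, exact), Dynll2 133 and 65 (-0.63, adjusted p 0.0368, exact), and Dynlt1b 77 and 30 (-0.94, adjusted p 0.0209, exact). All 6 kept their direction and passed with TMM-scaled totals. With annotated transcripts only, which leaves fewer reads, Dynlt1c (log2 ratio -0.54, adjusted p 0.274, exact), Dynll2 (-0.56, 0.145) and Dynlt1b (-1.34, 0.125) did not pass, and with spliced models only the same 3 did not pass (0.141, 0.126 and 0.0946). Without a read minimum Dynll2 was lost (adjusted p 0.0598, exact). The choroid plexus markers (4638 and 5.63 CPM) were also higher in replicate 1, and the astrocyte (2390 and 3866 CPM) and oligodendrocyte markers (4529 and 6137 CPM), with Prox1, in replicate 2. Their part in the motor gene differences was not tested.

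The difference between libraries ran with transcript length. Over the 32 motor genes with at least 50 reads, Spearman's rho between the log2 ratio and the length of the leading annotated transcript was 0.70, against 0.49 over all 6456 such genes. Genes are not independent replicates, and each point rests on the same 2 libraries. It was 0.54 over 12 kinesin genes, 0.81 over 14 dynein genes and 0.94 over 6 dynactin genes, so that each class alone had the same direction. All 4 motor genes under 1000 nt lay below 0 (median -0.91), as did all 4 of 1000 to 2000 nt (median -0.30). Of the 13 genes of 2000 to 4000 nt, 6 lay below 0, and of the 11 over 4000 nt only Kif3b did (median 0.39). In all genes the medians over the same bins ran from -0.67 under 1000 nt to 0.30 over 4000 nt.

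The shortest with at least 50 reads were Dynlrb1 (684 nt), Dynlt1b and Dynlt1f (771 nt each), and Dynlt1f had 38 reads in replicate 1 and 12 in replicate 2 (log2 ratio -1.21, adjusted p 0.0641, exact, and 0.0342 with TMM-scaled totals). The longest were Dync1h1 (14342 nt, log2 ratio 0.03), Kif21b (9115 nt, 0.78, adjusted p 0.190, exact) and Kif1a (8206 nt, 0.33, adjusted p 0.420, exact). None of the 3 longest passed the test, and Dync1h1 lay below the median of all genes. When the length trend of all genes was taken out, 4 of the 11 calls were left. They were Kif5c, higher in replicate 2 (adjusted p 0.0296, exact), and Dynll1 (7.41e-08), Dynlt1c (0.000355) and Dynll2 (0.00501), higher in replicate 1. For Dynlt1c the trend was taken at 2589 nt, while its spliced reads lay on models of 2406 nt in replicate 1 and 1697 nt in replicate 2 on average. The copy that its reads belong to is also uncertain, as given further on. Klc1, Kif1bp, Kif5a, Dync1i2, Dctn3, Dynlrb1 and Dynlt1b no longer passed.

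**Figure D2:**
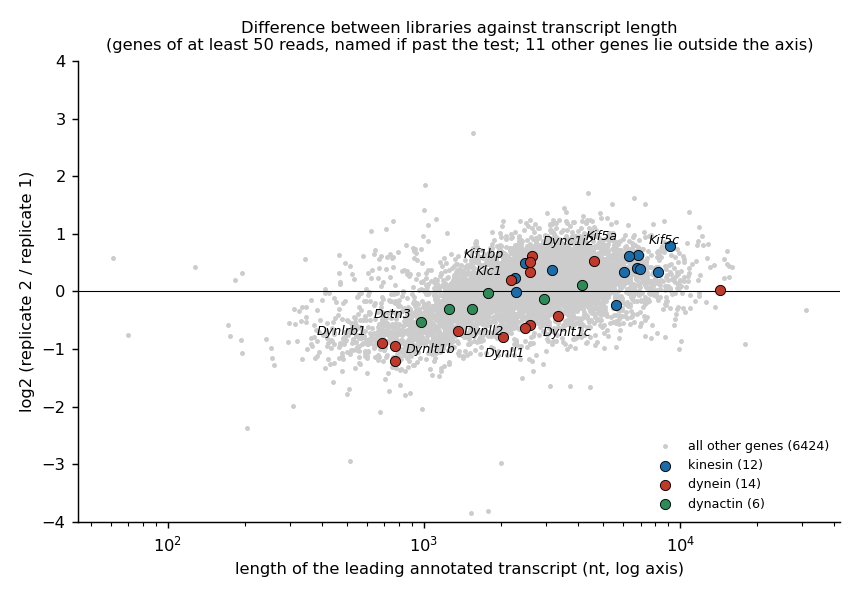
Log2 ratio of replicate 2 over replicate 1 against the length of the leading annotated transcript (nt, log axis), for genes of at least 50 reads. Grey points are other genes, coloured points the 32 motor genes, and those past the test are named. Short dynein light chains lie below 0 and long kinesins mostly above it.

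Of the motor reads, 51.4% ± 0.136 (SD, n = 2) matched an annotated transcript in full, against 71.6% ± 0.161 of the reads of all annotated genes. Incomplete matches, deposited as a part of an annotated transcript, took 14.4% ± 0.0403 (10.6% of all genes). Of these motor reads, 222 of 854 in replicate 1 and 145 of 692 in replicate 2 were on 1-exon models, which have no intron. Models that the deposited tables class as a new combination of annotated sites took 16.9% ± 0.678 (6.25%), and models with an unannotated site 8.60% ± 0.699 (3.97%). Genomic models, which fit no intron chain, took 8.75% ± 1.20 (7.51%). The shares on new combinations and on unannotated sites each rested largely on 1 gene. Klc1 held 577 of 972 and 541 of 837 reads on new combinations, and without it the share was 7.68% ± 0.347 (SD, n = 2), against 6.25% ± 0.927 over all genes. Dctn2 held 316 of 481 and 246 of 439 reads on unannotated sites, and without it the share was 3.61% ± 0.902, below the 3.97% of all genes. The class does not always follow the sites. Of the motor reads classed as new combinations, 28.3% and 22.8% held a splice site that no GENCODE M21 exon of the gene has. Of the spliced motor reads classed as incomplete matches, 8.54% and 9.32% held such a site.

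The share on annotated transcripts ran from near 0 to near 100%. Dynll1 (97.5% and 97.8%), Dctn3 (97.1% and 93.7%), Dynlt3 (93.3% and 92.3%) and Kif1bp (88.7% and 93.7%) were read almost wholly as annotated. Dync1li1 (86.8% and 92.8%), Dynlrb1 (88.1% and 85.5%), Dync1i1 (84.5% and 85.9%), Dctn6 (89.7% and 84.7%) and Kif3c (79.5% and 86.0%) followed. At the other end, Klc1 had 26.5% and 26%, Dctn2 8.14% and 8.83%, and Dctn1 6.61% and 9.89%. Dync1h1 and Kif1a had none in either library, of 72 and 56 reads and of 97 and 93. Over the 31 genes that reached 20 reads in both libraries, rho between this share and the length of the longest coding transcript was -0.58 in replicate 1 and -0.54 in replicate 2.

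**Figure D3:**
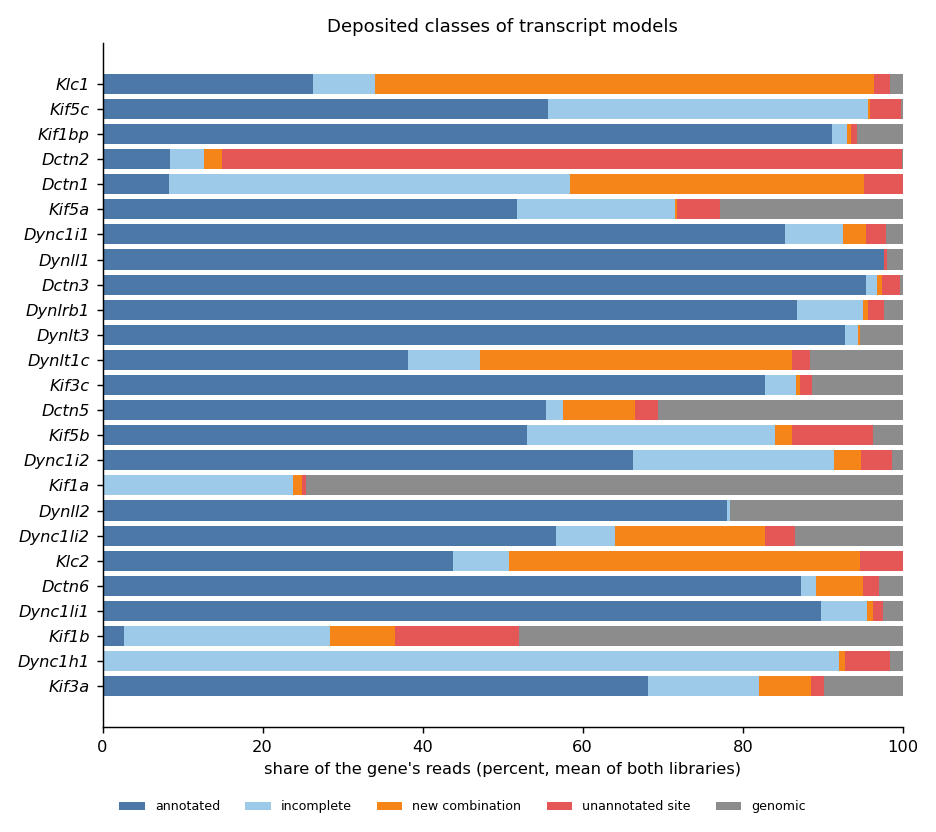
Mean share over both libraries of each gene's reads in the deposited model classes (percent), for the 25 most read motor genes. Dynll1 and Dctn3 are nearly all annotated, Dctn2 is mostly on a model with an unannotated site, Klc1 on new combinations, Dync1h1 on incomplete models and Kif1a on genomic ones.

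In the share of reads on the leading annotated transcript, 0 of 31 motor genes differed in Fisher's exact test with adjustment over 6607 genes (0.696% of all genes passed, 0.151% higher in replicate 1 and 0.545% in replicate 2), and 1 had an unadjusted p under 0.05. Of the 31, Dync1h1 and Kif1a had no annotated read in either library, so that 29 could have differed. The 1 gene was Kif1bp, whose leading transcript held 87.7% of 326 reads and 93.1% of 350 (adjusted p 0.469, exact). Kif5c-201 held 54.1% and 57.3% of the Kif5c reads, and Kif5a-201 held 48.0% and 55.6% of those of Kif5a. Their spliced reads covered at least 50% of the exons of the fullest transcript in 82.6% and 82.7% for Kif5c and in 81.1% and 81.8% for Kif5a. Of all reads, those on 1-exon models included, these were 68.9% and 70.7% for Kif5c and 59.6% and 66.0% for Kif5a.

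The longest genes were read in part. Dync1h1 has 77 exons and 14342 nt, and its longest spliced model had 8218 nt and 48 exons in replicate 1 and 7790 nt and 46 exons in replicate 2. Of its 70 and 55 spliced reads, 23 and 28 covered at least 50% of the exons, and 93.1% and 91.1% of its reads were incomplete matches. Its most frequent chain, of 43 exons and 7181 nt, was found in 12 and 19 reads. So each read of Dync1h1 covered at most a part of the motor's transcript. Kif1b, by contrast, reached 48 exons and 10244 nt in replicate 1 and 49 exons and 10245 nt in replicate 2. Kif1b is annotated with a short form, which ends after 21 exons and encodes the isoform known for carrying mitochondria, and a long form, which carries synaptic vesicle precursors. Of the reads counted as telling them apart, 5 of 22 in replicate 1 and 3 of 20 in replicate 2 had the short end (22.7%, exact 95% interval 7.82% to 45.4%, and 15%, 3.21% to 37.9%). Another 26 and 39 reads, on 1-exon models at the annotated 3′ end of the gene, were not among those counted.

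Models with 1 exon took 13.5% of the motor reads in replicate 1 and 11.0% in replicate 2, near the 14.2% and 11.8% of all annotated genes. The last exon held 81.2% and 78.1% of these reads. The most such reads were of Dctn1 (132 and 59), Kif1a (79 and 63), Kif5c (64 and 66) and Kif5a (59 and 50). In 4 genes with at least 20 reads they made up at least 50% in both libraries: Kif21b (92.6% of 27 reads and 88.9% of 36), Kif3b (83.3% of 42 and 81.5% of 27), Kif1a (81.4% of 97 and 67.7% of 93) and Dync2h1 (81.8% of 22 and 76.5% of 17). These 4 held 157 of the 803 motor reads on 1-exon models in replicate 1 (19.6%) and 130 of 529 in replicate 2 (24.6%). The reads of Kif3b and Kif21b lay in their last exons. Those of Kif1a were on 1 model in each library, of 79 and 63 reads. The first lay mostly in the last exon and the second mostly past the annotated 3′ end of the gene. Those of Dync2h1 were different, with 17 and 13 reads inside introns. Only 18 and 30 reads of Kif1a were spliced, so the level of this motor rests mostly on reads of its 3′ end.

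Between the libraries, 1 of 31 tested motor genes differed in its 1-exon share at an adjusted p of at most 0.05 (1.28% of 6423 genes did, 1.07% higher in replicate 1 and 0.202% in replicate 2), and 4 had an unadjusted p under 0.05. It was Dctn1, with 132 of 333 reads (39.6%) in replicate 1 and 59 of 273 (21.6%) in replicate 2, all in the last exon (Fisher's exact test, adjusted p 0.000458). Kif1b had the opposite direction, at 37.8% and 55.4% (adjusted p 0.648, exact). In replicate 1, 26 of its 28 reads on 1-exon models were on a model of 1 nt. The shares were alike in order in both libraries (rho 0.92 over 31 genes), and longer genes had larger ones (rho 0.52 and 0.42).

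Cassette exons, internal exons whose inclusion and skipping are both annotated between the same flanking sites, numbered 73 in the motor genes, and 65 had a read. In 12 genes, 22 events reached 20 reads, inclusion and skipping together, in both libraries. None differed between libraries at an adjusted p of at most 0.05 in Fisher's exact test (0.0223% of 4489 events of all genes did), and none had an unadjusted p under 0.05. In 14 of the 22 the mean inclusion was under 5%, in 3 over 95%, and in 5 between (22.7%, against 28.0% of the events of all genes). All 5 exons between 5% and 95% had a length divisible by 3.

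The Dync1i1 exon of 60 bases, printed above, was included in 170 of 195 reads in replicate 1 (87.2%, exact 95% interval 81.7% to 91.5%) and in 165 of 200 in replicate 2 (82.5%, 76.5% to 87.5%). The Dync1i2 exon at the matching place in its paralog was included in 36 of 76 (47.4%, 35.8% to 59.2%) and 57 of 95 (60%, 49.4% to 69.9%). The intervals of both genes did not overlap in either library, so the intermediate chain gene Dync1i1 had the exon in more of its transcripts than Dync1i2 had. The Dync1li2 exon of 42 bases was included in 56 of 71 reads (78.9%) and 64 of 79 (81.0%). The Dctn4 exon of 21 bases was included in 32 of 35 reads (91.4%) and 26 of 32 (81.3%).

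The cassettes of the other genes were nearly always in or out. The 27-base Kif5c exon was in 0 of 263 and 0 of 314 reads, which allows at most 1.39% and 1.17% by the exact 95% interval. The 9-base exon of Kif3a was in 0 of 43 and 0 of 33 reads, and its 126-base exon in 46 of 47 and 37 of 37. The 15-base exon of Dctn1 was in 0 of 48 and 0 of 44 reads that had either annotated form, which leaves out reads with the unlisted donor described further on. The 27-base exon of Kif1b was in 0 of 27 and 1 of 22. The tested exons of Dctn5 and Dctn6 lay under 5%, except the 89-base exon of Dctn6, in all of 113 and 67 reads. The 116-base exon of Kif1bp was in 294 of 295 reads and in 329 of 329. The other 2 tested exons of Dync1i2, the other 2 of Dync1li2 and the other of Dync1i1 were in at most 1 read per library.

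**Figure D4:**
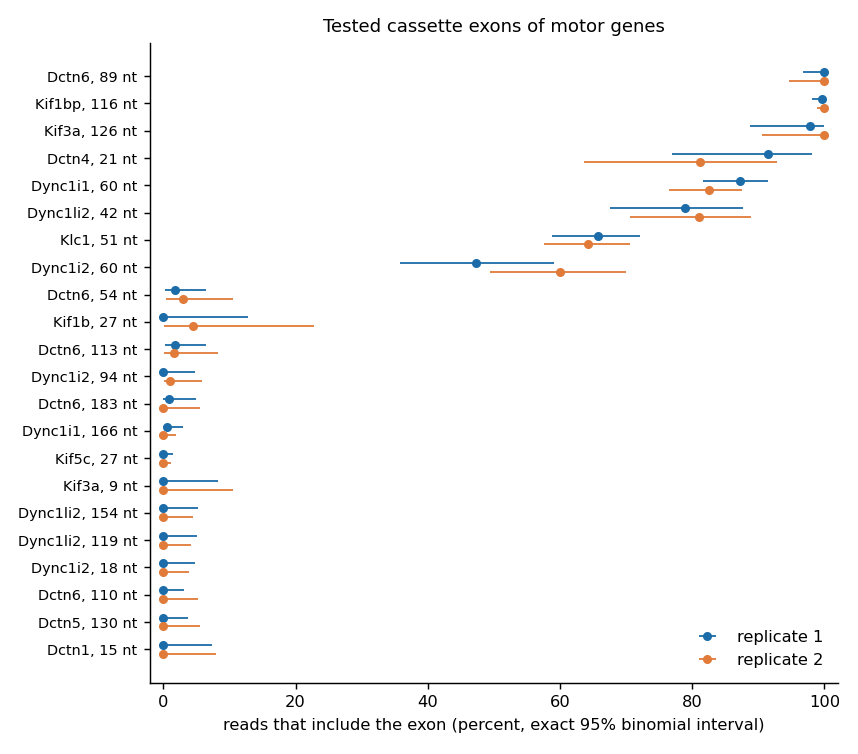
Share of reads that include each of the 22 tested cassette exons of motor genes (percent), with exact 95% binomial intervals, for both libraries. The intervals of both libraries overlap for each exon, and 5 exons lie between 5% and 95%.

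Klc1 was the gene with the most forms, because its choices near the 3′ end were combined. Of 912 and 828 reads over the alternative exon, 70.3% and 68.8% had the long start and 25% and 29.0% the long end. The far last exons were reached by 3.07% and 3.74%. The near last exon, which begins at position 111794337, was reached by 879 and 797 reads, with or without the 51-base cassette. All 8 combinations of start, end and cassette were read in both libraries. The most frequent, long start, short end and no cassette, held 28.8% and 28.1%, and the same with the cassette 24.6% and 20.9%. The other 6 combinations were each between 2.41% and 12.8% in both libraries.

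The cassette was not used alike beside each end of the exon. Among reads with the short end it was in 292 of 672 (43.5%, exact 95% interval 39.7% to 47.3%) and 247 of 573 (43.1%, 39% to 47.3%). Among reads with the long end it was in 136 of 207 (65.7%, 58.8% to 72.1%) and 144 of 224 (64.3%, 57.6% to 70.6%). The intervals did not overlap in either library, so on single Klc1 molecules the cassette went more often with the long end. Over either end it was in 48.7% and 49.1%. The start showed no such order, with the cassette in 49.9% and 47.7% of reads with the long start and in 45.7% and 52.0% with the short one. With the cassette the annotated reading frame ends inside it, at the stop codon printed above, before the near last exon. The annotated transcript read most, Klc1-202, held 24.2% and 24.6% of the Klc1 reads, and 60.7% and 63.9% were classed as new combinations.

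**Figure D5:**
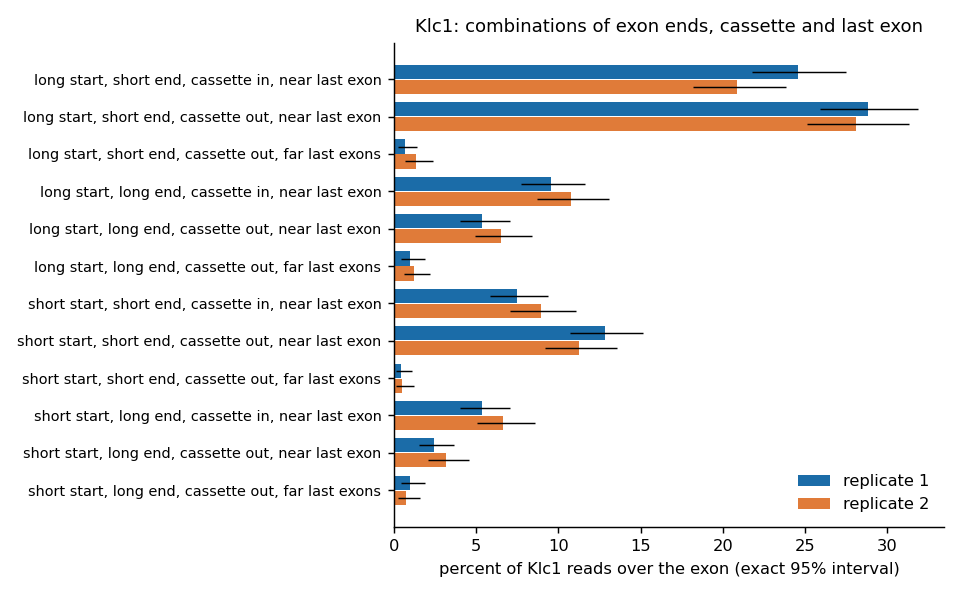
Share of Klc1 reads over the alternative exon (percent, bars from 0) for each combination of its start, its end, the 51-base cassette and the last exon, with exact 95% binomial intervals, for both libraries. Long start and short end without the cassette is highest, at 28.8% and 28.1%, and the far last exons are rare.

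Among 437 unannotated spliced chains of the motor genes, 66 were found in both libraries, and these held 86.0% and 84.1% of the reads on such chains. The most frequent was of Dctn2, with 14 exons and 301 and 231 reads (79.0% and 81.6% of the gene). It left the second exon at the donor 10 bases past the annotated one, at position 127267492. Of the reads that spliced to the next annotated exon, 314 of 358 (87.7%) and 243 of 276 (88.0%) used this donor, against 9.78% in each library for the annotated one. As 10 is not divisible by 3 and the exon is coding, the frame after it would differ from the annotated one if both sites are placed rightly. The placement of the alignments at this site was not tested.

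The next chains were 3 of Klc1 and 1 of Dctn1. Those of Klc1 had 195 and 154, 105 and 86, and 77 and 81 reads, and are among the combinations above. That of Dctn1 had 26 exons, 4221 nt, and 87 and 93 reads (26.1% and 34.1% of the gene). Of the spliced Dctn1 reads that began at one of 3 annotated starts, 73.4% and 72.4% began at the third, the most downstream. The first start had 22.7% and 22.1% and the second 3.91% and 5.52%. The order of the starts was the same in each library.

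Near its 3′ end, Dctn1 was also read with a donor that GENCODE M21 does not list, at position 83196124, while the annotated donor is at 83196107. Of the reads that spliced to the exon after the 15-base cassette, 72.3% (138 of 191) and 77.0% (161 of 209) used it, 25.1% and 21.1% the annotated one, and 1.57% and 0.957% came from the cassette. The deposited class of the leading Dctn1 model is nevertheless a new combination of annotated sites. Of the Dctn1 reads so classed, 88.8% and 93.8% held an unlisted site. The placement of these alignments was not tested.

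The 4 Dynlt1 genes of chromosome 17 have to be read as uncertain. The coding sequences of Dynlt1a, Dynlt1c and Dynlt1f, 339 bases each, are identical, and that of Dynlt1b differs from them at 1 base, so a read can be given to the wrong copy. They had 55, 77, 194 and 38 reads in replicate 1 for Dynlt1a, b, c and f, and 31, 30, 98 and 12 in replicate 2. Splice sites outside the annotated gene were held by 83.6% and 83.9% of the Dynlt1a reads, 45.5% and 60% of those of Dynlt1b and 36.1% and 41.8% of those of Dynlt1c. The farthest such site of Dynlt1c lay 345 kb away, and sites of Tmem181a were among them. Summed or single, all 4 copies had fewer CPM in replicate 2.

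Of the genes that work with these motors, a list of 43 was examined, and 37 could be tested. None was higher in replicate 1 (5.03% of all genes were) and 5 were higher in replicate 2 (5.81% of all genes), at an adjusted p of at most 0.05 in the exact binomial test. The highest were Capza2 (712 and 893 CPM), a capping subunit of the dynactin filament, Fez1 (725 and 787 CPM), a kinesin-1 adaptor, Kifc2 (394 and 513 CPM), a minus-end kinesin outside the name rule, and Capzb (434 and 357 CPM). Arl8a, which links lysosomes to kinesin, had 395 and 367 CPM, and Actr1b, the actin-related protein of the dynactin filament, 321 and 335 CPM. Those called were Mapk8ip1 (log2 ratio 0.66, adjusted p 6.27e-06, exact), Capza2 (0.33, 0.000188), Kifc2 (0.38, 0.00159), Trak1 (0.82, 0.0101) and Trak2 (0.61, 0.0355). Trak1 and Trak2 tie mitochondria to kinesin-1 and dynein, and both were higher in replicate 2. With TMM-scaled totals Capza2 (adjusted p 0.0556, exact), Kifc2 (0.0742) and Trak2 (0.148) no longer passed, and Capzb did, higher in replicate 1 (0.00166). With the length trend removed, Mapk8ip1 alone of the 5 called still passed (adjusted p 0.0287, exact binomial). Trak1 (0.271), Trak2 (0.667), Capza2 (0.618) and Kifc2 (0.907) did not pass there, and Mapk8ip3, not called in the main test, did (0.0408). The 14 activators and regulators of dynein summed to 406 ± 33.4 CPM, and 0 of 11 tested passed. Bicdl2 and Spdl1 had no read.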

How the data were processed

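Long-read RNA sequencing of 2 hippocampus libraries was analysed. In the deposited tables, each transcript model of a library has its raw count of reads, with no normalization. Per the file headers and the accompanying text files, the authors used the mm10 assembly and GENCODE M21, and models added to the annotation carry TALON in their source field. Aligner and software versions: not given in the sources used here.

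Reads of a gene were summed over its models from the deposited counts, and CPM were taken over every read of the library, with spike-ins. The gene test was an exact binomial test, two-sided by doubling the smaller tail, of how a gene's reads split between the libraries given their totals, for genes of 10 or more reads. This form was chosen over the one that sums all splits no more likely than that seen after the counts of both were known: they called 1266 and 1342 of 11681 genes, and 11 motor genes each. Shares were tested with Fisher's exact test, two-sided, from 20 reads in each library. Benjamini-Hochberg adjustment ran over all genes or exons, with a threshold of 0.05. Intervals are exact (Clopper-Pearson) at 95% and cover counting error only. The p-values weigh a difference between these 2 libraries against counting error only, and no spread between libraries enters them. No label says that the pools are separate litters, so such a difference may be technical. The biological coefficient of variation from edgeR 4.0.16, with both libraries as 1 group, was 0.213. Alternatives were TMM and DESeq2 1.42.0 size factors, read minimums, annotated transcripts only, spliced models only and removal of the length trend in 20 bins. The tests were run on simulated reads that held counting error only. The gene test called 32.3% of 2-fold and 79.8% of 4-fold differences in the right direction. The share test called 51% of shares of 50% against 80%. Of unchanged genes, 0.0180% and 0.0780% were called by the gene test and the share test. A gene or exon that did not pass may therefore still differ. Python 3.11.15 and scipy 1.17.1 were used.

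The members and lists were chosen with earlier results of these data known. Named with values are the 25 highest genes by mean CPM, those past a test, those with a tested cassette, those mostly on 1-exon models, the 3 longest and 3 shortest with at least 50 reads, and those with no read. Of the partners they are the 6 highest, those past a test and those with no read. Klc4, Dync2li1, Dynlt1a, Tmem181a and the single cell type markers were named after their values were seen. So were Capzb as a TMM call and Mapk8ip3 as a call with the length trend removed. Sequences are from GENCODE M21 transcripts, and none of chromosome 18 is given.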

Additional observations from a re-analysis of the deposited data

Results flagged for a closer look

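Reads on the strand opposite to a motor gene's exons, which no comparison above used, were above the level of 3 reads in both libraries for 2 genes. Over Dync1li1 there were 44 such reads in replicate 1 and 19 in replicate 2, against 76 and 83 reads of Dync1li1 itself. Over Kif3c there were 8 and 6, against 127 and 129. No motor gene had more such reads than its own in both libraries. In all, 94 and 33 reads lay opposite to motor exons, and 5 genes had them in both libraries.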

How the results depend on the processing

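No paired analysis was possible because there is 1 group of 2 libraries, so no groups share replicate numbers. Counting annotated transcripts only, the summed levels fell to 1193 CPM for kinesin, 1089 CPM for dynein and 418 CPM for dynactin, and 6 motor genes differed between libraries in place of 11. CPM over reads of annotated genes gave 1701 CPM for dynein and 1209 CPM for dynactin, and spliced models only gave 938 CPM for dynactin. Removing the length trend left 4 calls. Over members, the median 1-exon share was 6.85% and the median annotated share 56.2%. Leaving out each library, the summed levels ranged from 2319 to 3001 CPM for kinesin, 1404 to 1626 CPM for dynein and 1024 to 1131 CPM for dynactin, genes read from 56 to 58, the 1-exon share from 11.0% to 13.5% and the annotated share from 51.3% to 51.5%. The counts of genes and exons differing in leading share, inclusion or 1-exon share were the same in all alternatives run. TMM and DESeq2 totals each gave 10 calls, 7 higher in replicate 1 and 3 higher in replicate 2, and spliced models only gave 3 and 7. An alternative chosen after seeing the data, counting the Klc1 cassette beside either end of the exon before it, moved its mean inclusion from 65.0% to 48.9%. The other two-sided form of the binomial test, also added after seeing the data, gave 11 calls. A gene with no read could hold up to 2.57 CPM in replicate 1 and 3.38 CPM in replicate 2.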
